A study of Rattus norvegicus with 6 samples.

Results

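The genes described here are 10 genes of the regulated secretory route in cultured rat oligodendrocyte lineage cells: the neuropeptide precursors Penk and Vgf, the granins Chga, Chgb, Scg2 and Scg3, the chaperone Scg5, and the processing enzymes Pcsk1, Pcsk2 and Cpe. They were taken from the 37991 genes of the deposited table by symbol, each on a single row. The set was chosen by function after the lower values of Penk and Vgf in differentiated cells had been seen, so the differences of Penk and Vgf are given as descriptions with no test. The other 8 genes are given with the test over all genes. The data are read counts from 3 libraries of differentiated cells and 3 libraries of precursors, numbered 1, 2 and 5 in both groups. Differentiated cells are SD rat oligodendrocytes after a change of growth factors (day 3 in the titles of replicates 1 and 2). Precursors are SD rat oligodendrocyte precursors grown in Raff medium before that change (day 0 in the same titles). The titles of replicate 5 give no day in that form, and no genetic change is named for either group.

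Neuropeptides are made as long precursor proteins that enter the secretory route and are packed into dense core granules. Granins are acidic proteins that aggregate in the trans-Golgi network and help to form those granules. Inside them, proprotein convertases cut precursors at pairs of basic residues, and a carboxypeptidase trims the basic residues that are left. The route is best known in neurons and endocrine cells, and proenkephalin transcripts are also known from cultured glia. Oligodendrocyte precursors divide and migrate before they become the cells that form myelin.

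Total counts ran from 55522101 to 79898629 per library. All 14 myelin genes of a marker list were higher in differentiated cells by the test used here, so the libraries went with their labels. Of 12 tested markers of oligodendrocyte precursors, 0 were lower and 3 higher by that test, where 3.21% and 5.65% of all genes tested were. Each library holds the RNA of a whole culture, so fewer cells of a type and less RNA per cell cannot be told apart. Both replicate 1 libraries stood apart from the others, for example in microglia markers, whose summed level was 1069 CPM (reads per 1000000 reads, with edgeR's TMM scaling, which offsets differences in library makeup) in differentiated 1 and 1434 CPM in precursor 1, against 542 to 598 CPM in the other differentiated libraries and 565 to 589 CPM in the other precursor libraries.

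Penk encodes proenkephalin, the precursor of Met-enkephalin and Leu-enkephalin, which are ligands of opioid receptors. Penk (29237) had 512, 661 and 490 reads in differentiated libraries 1, 2 and 5, against 4841, 5970 and 5197 reads in precursor libraries 1, 2 and 5. Scaled levels were 7.13, 10.2 and 8.92 CPM in differentiated cells and 75.9, 83.4 and 72.2 CPM in precursors. The groups lay far apart, and the 3 precursor libraries lay close together, including precursor 1. The mean level was 8.77 ± 1.56 CPM in differentiated cells and 77.2 ± 5.72 CPM in precursors (SD, n = 3 each), an 8.81-fold lower level on the fitted scale (log2 ratio of the differentiated to the precursor level -3.14, SE 0.17). Of the 17797 genes tested, 67 had a more negative fitted log2 ratio than Penk. Same-numbered libraries differed by -3.41, -3.02 and -3.01 on the log2 scale for replicates 1, 2 and 5.

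Vgf encodes a precursor first found as a nerve growth factor inducible gene, which is cut into several secreted peptides. Vgf (29461) had 3.34, 3.24 and 3.66 CPM in differentiated libraries 1, 2 and 5, against 10.6, 13.5 and 19.9 CPM in precursors 1, 2 and 5. The differentiated libraries were nearly alike, whereas the precursor libraries spread widely, with precursor 5 highest and precursor 1 lowest. The fitted level was 4.29-fold lower in differentiated cells (log2 ratio -2.10, SE 0.26), from means of 3.41 ± 0.218 CPM in differentiated cells and 14.7 ± 4.74 CPM in precursors. On the log2 scale the same-numbered differences were -1.65, -2.05 and -2.43 for replicates 1, 2 and 5, so that precursor 5 set the widest gap and precursor 1 the narrowest. The values of Penk and Vgf are those that chose the set, and no p-value is attached to them.

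**Figure D1:**
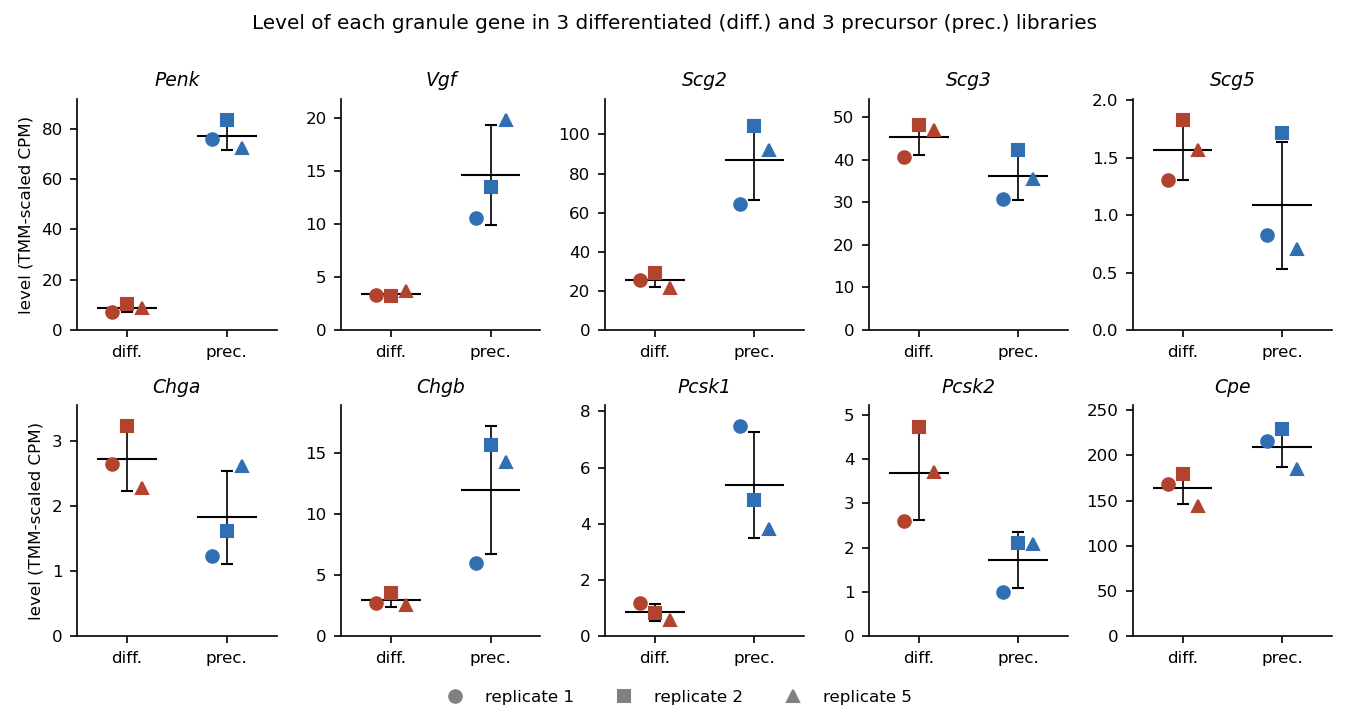
Level of each of the 10 genes (y axis, TMM-scaled CPM, from 0) in the differentiated (left, red) and precursor (right, blue) libraries, with symbols for the replicate, a line at the group mean and a bar of 1 SD (n = 3). Penk, Vgf, Scg2, Chgb, Pcsk1 and Cpe had all 3 differentiated libraries below all 3 precursor libraries, Pcsk2 had them above, and Scg3, Scg5 and Chga overlapped.

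The granins showed separate patterns. Scg2 and Chgb fell in differentiated cells, while Scg3 and Chga were not lower there. Scg2 (24765), secretogranin II, is the precursor of secretoneurin. Its level was 25.8, 29.2 and 21.8 CPM in differentiated libraries 1, 2 and 5, against 64.5, 104 and 92.0 CPM in precursors 1, 2 and 5. The groups did not overlap, with precursor 1 the lowest of the precursors. Scg2 fell 3.40-fold (log2 ratio -1.77, SE 0.21, edgeR adjusted p = 0.0029) and passed the test in each of the 6 fits that left out 1 library (highest edgeR adjusted p = 0.0195).

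Chgb (24259), chromogranin B, had 196, 230 and 141 reads in differentiated libraries 1, 2 and 5, against 385, 1123 and 1030 reads in precursors 1, 2 and 5. Levels were 2.73, 3.56 and 2.57 CPM in differentiated cells and 6.04, 15.7 and 14.3 CPM in precursors, where precursor 1 stood well below the other precursors. Chgb fell 4.07-fold (log2 ratio -2.02, SE 0.38, edgeR adjusted p = 0.0186). The call was lost in 5 of the 6 fits that left out 1 library, although the log2 ratio in those 5 stayed between -2.18 and -1.78: the edgeR adjusted p was 0.0515 without differentiated 1, 0.0654 without differentiated 2, 0.0907 without differentiated 5, 0.0797 without precursor 2 and 0.0645 without precursor 5, and 0.00173 without precursor 1. It was lower in 3 of 3 same-numbered pairs, and it had a log2 ratio of -2.28 (edgeR adjusted p = 0.00126) without both replicate 1 libraries.

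Chga (24258), chromogranin A, the classic marker of endocrine granules, was low in both groups. It had 2.65, 3.22 and 2.28 CPM in differentiated libraries 1, 2 and 5, against 1.24, 1.62 and 2.61 CPM in precursors 1, 2 and 5. The groups overlapped, since precursor 5 lay within the differentiated range. It missed the threshold (log2 ratio 0.57, SE 0.35, edgeR adjusted p = 0.39), and it was higher in 2 of 3 pairs. On deposited TPM, which scale for transcript length and so allow genes to be set side by side, Chgb stood to Chga at a ratio of 0.764, 0.818 and 0.838 in differentiated libraries 1, 2 and 5, against 3.64, 7.22 and 4.0 in precursors. Chgb was thus below Chga in each differentiated library and above it in each precursor library. This ratio, and those of Scg2 to Scg3 and Pcsk1 to Pcsk2, were chosen after the values were seen and carry no test.

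Scg3 (116635), secretogranin III, which links granin aggregates to the granule membrane, had 40.5, 48.1 and 47.0 CPM in differentiated libraries 1, 2 and 5, against 30.8, 42.2 and 35.5 CPM in precursors 1, 2 and 5. The ranges overlapped slightly, since precursor 2 lay above differentiated 1. It missed the threshold (log2 ratio 0.32, SE 0.15, edgeR adjusted p = 0.256), and it passed with the replicate number as a block (log2 ratio 0.33, edgeR adjusted p = 0.0246, higher in 3 of 3 pairs). On deposited TPM, Scg2 stood to Scg3 at a ratio of 0.559, 0.537 and 0.416 in differentiated libraries 1, 2 and 5, against 1.88, 2.22 and 2.31 in precursors.

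**Figure D2:**
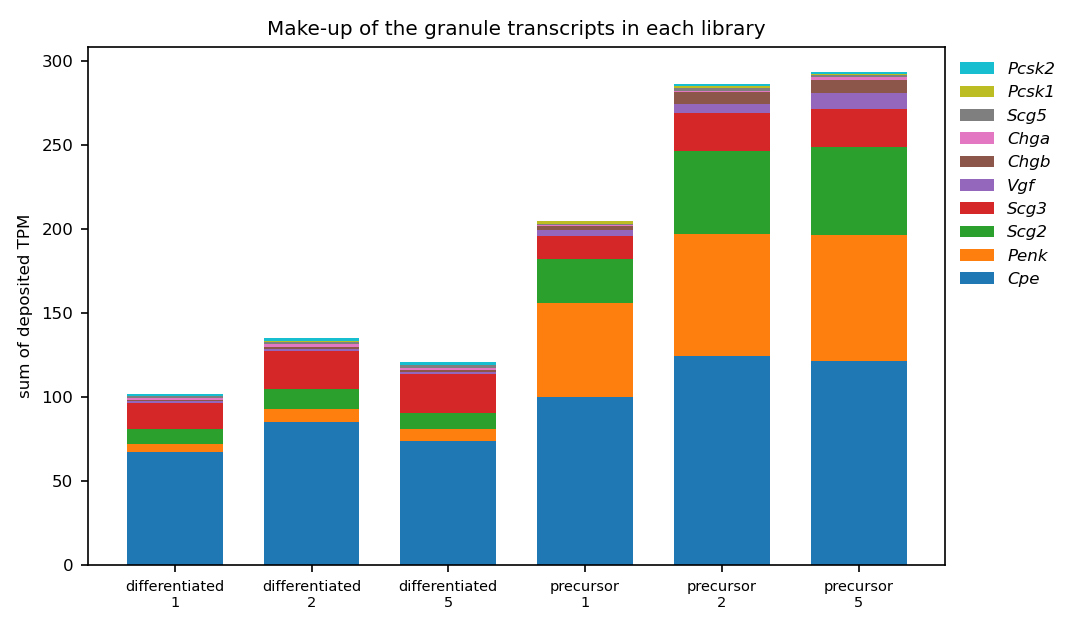
Summed TPM of the 10 genes (y axis, deposited TPM, from 0) in each differentiated library (left) and precursor library (right), split by gene. Differentiated libraries held 102 to 135 TPM in all and precursor libraries 205 to 293 TPM, with Penk and Scg2 taking up more of the precursor bars. The sums include Penk and Vgf, whose lower values chose the set. TPM also shifted the median log2 ratio of all genes tested down, to -0.17 on log2(TPM + 1) and -0.26 on log2(TPM + 0.1), against -0.04 with TMM.

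The start regions of Vgf and Scg2 are shown because both hold the full cAMP response element, the site of CREB family factors, and those of Chgb and of the convertase gene Pcsk2 because they lack it. Each sequence runs from 250 bases before to 50 bases after the annotated start, 5′ to 3′, from RefSeq on GRCr8, and capitals mark the element TGACGTCA. Vgf lies at chr12:25276971-25277270 (minus strand), Scg2 at chr9:88256817-88257116 (minus strand), Chgb at chr3:140496462-140496761 (plus strand) and Pcsk2 at chr3:151333688-151333987 (plus strand).
Vgf: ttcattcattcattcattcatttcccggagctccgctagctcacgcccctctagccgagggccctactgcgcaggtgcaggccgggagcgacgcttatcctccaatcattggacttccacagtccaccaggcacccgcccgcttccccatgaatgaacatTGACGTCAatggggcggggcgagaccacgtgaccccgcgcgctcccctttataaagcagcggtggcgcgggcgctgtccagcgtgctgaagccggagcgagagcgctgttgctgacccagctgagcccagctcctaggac
Scg2: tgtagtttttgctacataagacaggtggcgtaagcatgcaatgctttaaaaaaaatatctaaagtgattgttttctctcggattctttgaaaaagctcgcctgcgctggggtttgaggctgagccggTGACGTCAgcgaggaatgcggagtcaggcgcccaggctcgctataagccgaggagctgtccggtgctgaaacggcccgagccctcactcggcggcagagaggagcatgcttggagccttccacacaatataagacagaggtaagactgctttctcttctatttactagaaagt
Chgb: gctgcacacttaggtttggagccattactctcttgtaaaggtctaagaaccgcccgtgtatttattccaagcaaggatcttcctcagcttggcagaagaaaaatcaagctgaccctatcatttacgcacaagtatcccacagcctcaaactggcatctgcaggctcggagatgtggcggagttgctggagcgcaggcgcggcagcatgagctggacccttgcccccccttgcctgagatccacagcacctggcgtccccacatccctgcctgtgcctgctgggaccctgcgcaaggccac
Pcsk2: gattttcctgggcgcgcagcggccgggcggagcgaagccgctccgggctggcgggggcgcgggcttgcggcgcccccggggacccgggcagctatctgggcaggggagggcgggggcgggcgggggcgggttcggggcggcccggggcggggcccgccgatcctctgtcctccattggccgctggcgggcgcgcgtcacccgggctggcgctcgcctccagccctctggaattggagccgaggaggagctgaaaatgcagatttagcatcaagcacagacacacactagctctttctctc

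Of the 10 genes, 7 matched a start region by symbol and identifier, and Penk, Chga and Pcsk1 did not. TGACGTCA, which reads the same on both strands, began 90 bases before the start in Vgf and 123 bases before it in Scg2, and was found in neither Scg3, Scg5, Chgb, Pcsk2 nor Cpe. Of 33469 RefSeq start regions of this length, 1.83% held it. The shorter TGACG, searched on both strands and contained in the full element, was found in each of the 7 regions but that of Chgb, and in 21.2% of all regions. The AP-1 letters TGANTCA were found in none of the 7 and in 7.33% of all regions. A match of letters is a description and not a site in use, and the sequences come from the reference strain and not from these cultures.

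The processing enzymes also differed among themselves. Pcsk1 fell, while Pcsk2 was higher in each differentiated library. Pcsk1 (25204) encodes prohormone convertase PC1/3, which cuts precursors early in the granule route. It had 84, 53 and 32 reads in differentiated libraries 1, 2 and 5, against 476, 348 and 274 reads in precursors 1, 2 and 5. Levels were 1.17, 0.821 and 0.582 CPM in differentiated cells and 7.47, 4.86 and 3.81 CPM in precursors. In both groups replicate 1 was highest and replicate 5 lowest, and the groups did not overlap. Pcsk1 fell 6.23-fold (log2 ratio -2.64, SE 0.39, edgeR adjusted p = 0.00741), and it passed the test in each of the 6 fits that left out 1 library, with a highest edgeR adjusted p of 0.0467 without differentiated 2. On log2(TPM + 1), which understates changes of low genes, its difference was -0.91.

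Pcsk2 (25121) encodes prohormone convertase PC2, which acts later than PC1/3 and is a main enzyme that frees enkephalins from their precursor. Its level was 2.61, 4.73 and 3.69 CPM in differentiated libraries 1, 2 and 5, against 1.00, 2.1 and 2.08 CPM in precursors 1, 2 and 5. All differentiated libraries lay above all precursor libraries, and replicate 1 was lowest in both groups. It missed the threshold (log2 ratio 1.09, SE 0.38, edgeR adjusted p = 0.144). It passed with the replicate block (log2 ratio 1.12, edgeR adjusted p = 0.0126) and without both replicate 1 libraries (log2 ratio 1.02, edgeR adjusted p = 0.0451), and was higher in 3 of 3 pairs. On deposited TPM, Pcsk1 stood to Pcsk2 at a ratio of 0.217, 0.0828 and 0.0758 in differentiated libraries 1, 2 and 5, against 3.61, 1.13 and 0.885 in precursors. The ratio was above 1 in precursors 1 and 2 and below 1 in precursor 5 and in each differentiated library.

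Scg5 (25719) encodes 7B2, which escorts the Pcsk2 enzyme through the secretory route. Scg5 had 1.31, 1.83 and 1.57 CPM in differentiated libraries 1, 2 and 5, against 0.831, 1.72 and 0.709 CPM in precursors 1, 2 and 5. The groups overlapped, since precursor 2 lay within the differentiated range, and each library held only 51 to 123 reads of the gene. It missed the threshold (log2 ratio 0.53, SE 0.43, edgeR adjusted p = 0.529, higher in 3 of 3 pairs).

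Cpe (25669), carboxypeptidase E, trims the basic residues after the convertases have cut, and was the most abundant of the 10 genes in TPM in each library. It had 169, 179 and 144 CPM in differentiated libraries 1, 2 and 5, against 215, 228 and 184 CPM in precursors 1, 2 and 5. The groups did not overlap, although differentiated 2 lay just under precursor 5. The difference was small and did not pass the test (1.28-fold lower, log2 ratio -0.35, SE 0.13, edgeR adjusted p = 0.159). Its same-numbered differences were -0.35 in each pair, and it passed with the replicate block (log2 ratio -0.35, edgeR adjusted p = 0.0046). It also passed with library size alone as the scaling (-0.50, edgeR adjusted p = 0.0417) and by limma on log2(TPM + 0.1) (-0.61, limma adjusted p = 0.0479). Both of these scales also shifted the median of all genes down, to -0.19 and -0.26, against -0.04 with TMM.

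**Figure D3:**
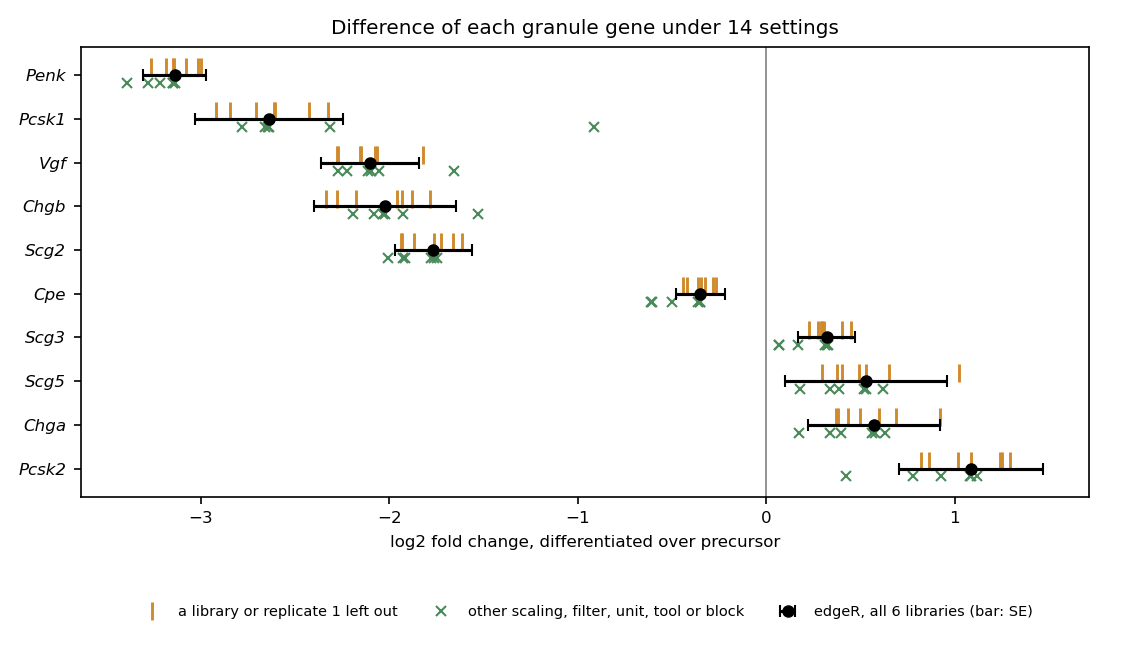
Log2 ratio of differentiated over precursor cells (x axis) for each gene, as a black point with its SE from edgeR on all 6 libraries, with orange ticks for fits that left out libraries and green crosses for another scaling, filter, unit, tool or the replicate block. Under each of the 13 alternatives the sign stayed the same for all 10 genes, and the cross at -0.91 for Pcsk1 is the log2(TPM + 1) scale.

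All 10 genes passed the low-count filter. Of the 8 genes other than Penk and Vgf, 3 were called lower and 0 higher (0 also with DESeq2) at an edgeR adjusted p under 0.05, where 3.21% of all genes tested were called lower and 5.65% higher. With library size alone as the scaling, the 571 lower and 1005 higher calls over all genes became 1006 lower and 678 higher. Over those same genes, 4110 had an unadjusted p under 0.05, and of the 8 genes Pcsk2 and Cpe had one without being called (0.0244 and 0.029). With the replicate block 4 of the 8 were lower and 2 higher, where 15.7% of all genes were lower and 14.9% higher. Their median log2 ratio was -0.02, against -0.04 over all genes, with Pcsk2, Chga, Scg5 and Scg3 on the positive side. Of all 10 genes, 6 had every differentiated library below every precursor library and 1 had them above, where 13.8% and 16.5% of all genes tested did so. Nothing is read from these counts about the set, because the contrast was seen before the genes were chosen.

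The order of the levels also differed between the groups. On deposited TPM, Cpe ranked first in each library. Penk ranked second in each precursor library, at 56.0, 72.3 and 75.3 TPM in precursors 1, 2 and 5, and below Cpe, Scg3 and Scg2 in each differentiated library, at 4.51, 7.74 and 7.17 TPM in libraries 1, 2 and 5. Scg3 took the place after Cpe in differentiated cells at 15.7, 22.2 and 23.2 TPM, close to its 13.9, 22.4 and 22.6 TPM in precursors. Without Cpe, the 9 other genes summed to 34.1, 49.7 and 47.0 TPM in differentiated libraries 1, 2 and 5, against 105, 161 and 172 TPM in precursors. These sums include Penk and Vgf, whose lower values chose the set. Penk alone gave 56.0, 72.3 and 75.3 TPM of the precursor sums, so nothing is read from them about the set. Penk made up 4.45% to 5.95% of the summed TPM of the 10 genes in differentiated cells and 25.3% to 27.3% in precursors. Among the low genes, Chga, Chgb, Scg5, Vgf and Pcsk2 in differentiated cells lay between 0.885 and 1.91 TPM, with ranges that overlapped.

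Other neuropeptide precursor genes gave a mixed picture. Of 62 listed, 59 were found on a single row, 18 of these had no reads in any library (among them Vip, Avp, Oxt and Crh) and 26 were tested. Of the 26, 3 were higher and 0 lower by edgeR, where 5.65% and 3.21% of all genes tested were. The median log2 ratio of the 26 was -0.47. At an unadjusted p under 0.05, 6 were lower and 4 higher, and DESeq2 called 3 lower and 3 higher. Of all 17797 genes tested, 4110 had an unadjusted p under 0.05, and DESeq2 called 1242 lower and 1514 higher. Trh (25569), the thyrotropin releasing hormone precursor, had 11.5, 10.8 and 8.32 CPM in differentiated libraries 1, 2 and 5, against 1.43, 2.40 and 2.79 CPM in precursors 1, 2 and 5. It rose (log2 ratio 2.21, SE 0.30, edgeR adjusted p = 0.00525). Its differentiated libraries all stood above its precursor libraries, and it kept its call when any 1 library was left out.

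Apln (58812), the apelin precursor, rose to 6.26, 6.0 and 8.46 CPM in differentiated libraries 1, 2 and 5, against 2.21, 2.05 and 1.04 CPM in precursors (log2 ratio 1.96, edgeR adjusted p = 0.0149). Agt (24179), angiotensinogen, rose to 15.2, 31.2 and 32.9 CPM, against 3.87, 9.46 and 9.02 CPM in precursors (log2 ratio 1.83, edgeR adjusted p = 0.0393). Agt is also an astrocyte marker, and 6 of the 13 tested genes of that list, Agt itself among them, were higher. Of all genes tested, 5.65% were called higher. The calls of Apln and Agt were lost without differentiated 2, differentiated 5 or precursor 2, and that of Agt also without precursor 5, with a largest edgeR adjusted p of 0.0677 for Apln and 0.139 for Agt. That of Agt was lost too with library size alone (log2 ratio 1.67, edgeR adjusted p = 0.0652) and by limma on log2(TPM + 1) and log2(TPM + 0.1) (1.37 and 1.57, limma adjusted p = 0.0922 and 0.0855). The number of genes called in the list was 1 without differentiated 2, differentiated 5 or precursor 2, 2 without precursor 5, and 4 without differentiated 1 or precursor 1.

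With the replicate block, 4 of the 26 were higher and 4 lower, where 14.9% and 15.7% of all genes tested were. Npy and Sst are named after their values were seen, since they are well known peptide genes of inhibitory neurons. Npy (24604), neuropeptide Y, had 1.46, 3.92 and 5.70 CPM in differentiated libraries 1, 2 and 5, against 8.60, 20.7 and 20.5 CPM in precursors 1, 2 and 5. Its groups did not overlap, and it missed the threshold over all libraries (log2 ratio -2.17, edgeR adjusted p = 0.051) and passed with the block (edgeR adjusted p = 0.000369). Sst (24797), somatostatin, had 0 reads in each differentiated library, which allows up to 0.0418 to 0.0546 CPM per library at 3 counts, and 24, 32 and 11 reads in precursors 1, 2 and 5. The dynorphin gene Pdyn (29190) had 3 reads in precursor 2 and 0 in the other 5 libraries. The third opioid precursor gene, Pomc (24664), had 59 to 95 reads in differentiated and 27 to 82 reads in precursor libraries.

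Among 19 tested genes of other prohormone processing enzymes, 2 rose and 0 fell by edgeR (median log2 ratio 0.13). At an unadjusted p under 0.05, 4 were lower and 3 higher, and DESeq2 called 4 lower and 2 higher. All 17797 genes tested gave 5.65% higher and 3.21% lower by edgeR. They gave 4110 with an unadjusted p under 0.05, and 1242 lower and 1514 higher by DESeq2. Cpm (314855), a carboxypeptidase of the cell surface that removes basic residues, had 30.1, 26.8 and 25.9 CPM in differentiated libraries 1, 2 and 5, against 11.1, 6.62 and 9.14 CPM in precursors (log2 ratio 1.62, SE 0.21, edgeR adjusted p = 0.00465). Cpd (25306), a carboxypeptidase of the trans-Golgi network, had 77.1, 74.5 and 77.5 CPM in differentiated libraries and 56.2, 45.8 and 55.6 CPM in precursors (log2 ratio 0.54, edgeR adjusted p = 0.0327). Cpm kept its call in each fit that left out 1 library, whereas Cpd kept it only without precursor 1 (largest edgeR adjusted p 0.123 in the others). Cpd also lost its call with library size alone (log2 ratio 0.39, edgeR adjusted p = 0.118) and by limma on log2(TPM + 1) and log2(TPM + 0.1) (0.27 and 0.28, limma adjusted p = 0.44 for both). The list held 1 called gene without differentiated 2, differentiated 5, precursor 2 or precursor 5, 2 without differentiated 1, and 5 without precursor 1. With the block 7 of the 19 were higher and 5 lower, where 14.9% and 15.7% of all genes tested were. The lower ones of the list include Pam (25508), the enzyme that amidates peptide ends, named after its values were seen. Pam had 66.3, 81.9 and 82.9 CPM in differentiated libraries and 99.6, 116 and 118 CPM in precursors, at an edgeR adjusted p of 0.0506 without the block and 0.00156 with it (log2 ratio -0.53). The general convertase gene Furin (54281) was at 34.7 to 39.3 CPM in differentiated and 32.5 to 46.4 CPM in precursor libraries (edgeR adjusted p = 0.991).

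Among 48 tested genes of dense core granule formation and release, 3 fell and 4 rose, where 3.21% and 5.65% of all genes tested did. The median log2 ratio of the 48 was -0.10. The 3 that fell act in granule loading and release. Slc18a2 (25549), the vesicular monoamine transporter, had 0.446, 0.139 and 0.20 CPM in differentiated libraries 1, 2 and 5, against 2.24, 1.24 and 1.60 CPM in precursors (log2 ratio -2.68, SE 0.56, edgeR adjusted p = 0.0291). Rab27b (84590), a small GTPase of granule docking, had 2.31, 1.97 and 1.86 CPM in differentiated libraries and 6.31, 4.37 and 5.71 CPM in precursors (log2 ratio -1.42, edgeR adjusted p = 0.0151). Cadps2 (312166), which primes granules for release, had 7.16, 6.40 and 6.73 CPM in differentiated libraries and 11.3, 13.9 and 14.1 CPM in precursors (log2 ratio -0.95, edgeR adjusted p = 0.0154). None of the 3 overlapped between the groups, which is likely for genes picked by their calls. Of the 48, 6 had every differentiated library below every precursor library and 8 had them above. Of all genes tested, 13.8% and 16.5% did so.

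The 4 genes of that list that rose were Rab3a, Rab3c, Bace1 and Arfip2. Rab3a (25531), a GTPase of vesicle release, had 15.1, 22.0 and 23.2 CPM in differentiated libraries 1, 2 and 5, against 6.67, 6.40 and 6.88 CPM in precursors (log2 ratio 1.59, edgeR adjusted p = 0.00394). Its relative Rab3c (171058) had a log2 ratio of 2.32 (edgeR adjusted p = 0.0162) at 1.75 to 3.33 CPM in differentiated and 0.377 to 0.681 CPM in precursor libraries. Bace1 (29392), a protease of the secretory and endosomal route, had a log2 ratio of 1.63 (edgeR adjusted p = 0.00284), and Arfip2 (293344), a trans-Golgi protein, one of 0.56 (edgeR adjusted p = 0.0497). Rab3a and Bace1 kept their calls in each fit without 1 library. The other 5 named genes of the list lost theirs in some. Each of the 5 lost it without differentiated 2, and each but Rab3c without differentiated 5. Slc18a2, Cadps2, Arfip2 and Rab3c lost it without precursor 2, Slc18a2, Rab27b, Cadps2 and Arfip2 without precursor 5, and Slc18a2 and Arfip2 without precursor 1. Arfip2 also lost its call with library size alone (log2 ratio 0.41, edgeR adjusted p = 0.184), with no low-count filter (0.56, edgeR adjusted p = 0.0546), and by limma on log2(TPM + 1) and log2(TPM + 0.1) (0.32 and 0.34, limma adjusted p = 0.461 and 0.454). The count of called genes in the list was 2 without differentiated 2, 3 without differentiated 5, precursor 2 or precursor 5, and 8 and 5 without differentiated 1 and precursor 1. With the block 8 were higher and 6 lower, where 14.9% and 15.7% of all genes tested were. The granule membrane protein Ptprn (116660) was at 167, 164 and 204 CPM in differentiated libraries and 152, 173 and 208 CPM in precursors, ranges that overlapped (log2 ratio 0.01, edgeR adjusted p = 0.988).

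**Figure D4:**
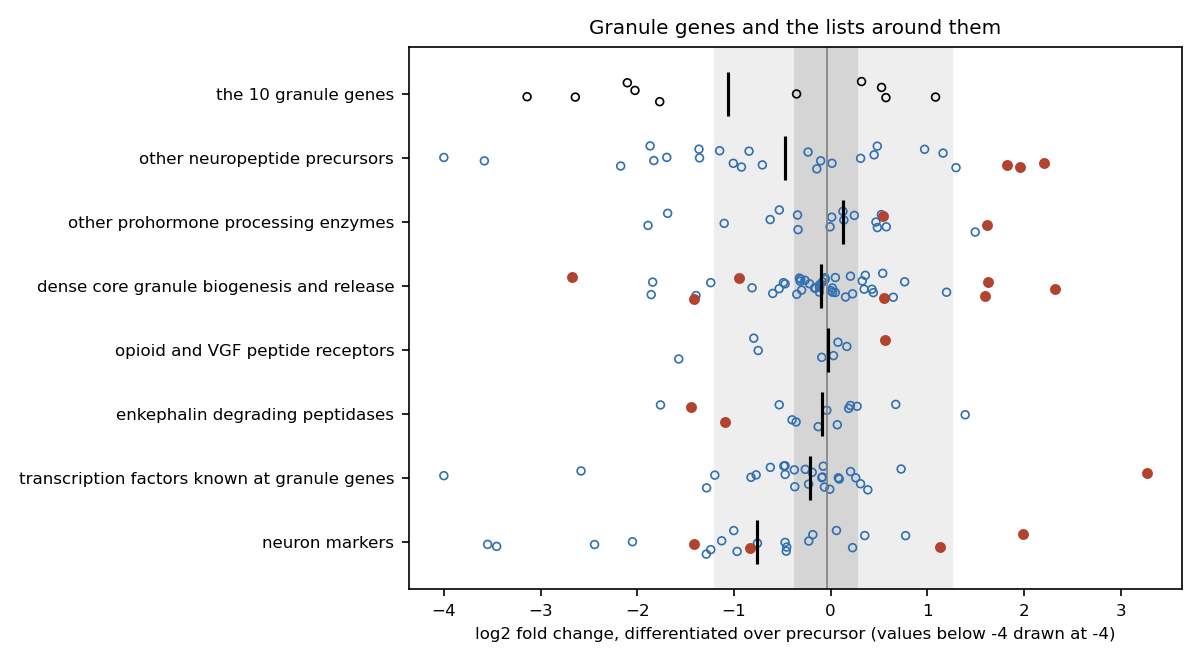
Log2 ratio of differentiated over precursor cells (x axis) for the 10 granule genes and the tested genes of 7 lists, with filled red points for genes called at an adjusted p under 0.05, open points for the others (calls are not marked for the 10 genes) and a black bar at each median. Grey bands hold the middle 50% and 90% of all 17797 genes, and the medians of the lists lie between -0.76 and 0.13. The bar of the 10 granule genes includes Penk and Vgf, whose values chose the set. The median of the members other than Penk and Vgf was -0.02.

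Opioid receptor genes had few reads in either group. Of 11 listed genes of opioid and VGF peptide receptors 8 were tested, of which edgeR called 1 higher and 0 lower (0 lower also at an unadjusted p under 0.05 and by DESeq2). The count of called genes was 0 without differentiated 2, differentiated 5, precursor 2 or precursor 5. The median log2 ratio of the list was -0.03, and with the replicate block 2 were lower and 1 higher. Of all genes tested, edgeR called 3.21% lower and 5.65% higher, and the block 15.7% lower and 14.9% higher. The µ receptor gene Oprm1 (25601) had 10 reads in differentiated 2 and 0 in the other 5 libraries, and the δ receptor gene Oprd1 (24613) had 4 reads in differentiated 1 and 0 in the others. The κ receptor gene Oprk1 (29335) had 18, 13 and 9 reads in differentiated libraries and 27, 29 and 73 reads in precursors (edgeR adjusted p = 0.218). The VGF peptide receptor gene C3ar1 (84007) was at 1.21 to 1.91 CPM in differentiated and 0.894 to 1.96 CPM in precursor libraries.

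Of 14 tested peptidases that degrade enkephalins or related peptides, 2 fell and 0 rose by edgeR (median log2 ratio -0.08). At an unadjusted p under 0.05, 3 were lower and 1 higher, DESeq2 called 2 lower and 0 higher, and the replicate block 5 lower and 1 higher. Over all 17797 genes tested, edgeR called 3.21% lower and 5.65% higher, and the block 15.7% lower and 14.9% higher. An unadjusted p under 0.05 was found for 4110 of all genes, and DESeq2 called 1242 lower and 1514 higher. Ece1 (94204), endothelin converting enzyme, fell to 29.3, 33.8 and 38.8 CPM in differentiated libraries 1, 2 and 5, against 50.4, 83.1 and 83.2 CPM in precursors (log2 ratio -1.09, edgeR adjusted p = 0.0247). Ace (24310), angiotensin converting enzyme, had a log2 ratio of -1.45 (edgeR adjusted p = 0.0401) at 0.759 to 1.31 CPM in differentiated and 2.17 to 3.13 CPM in precursor libraries. Ace lost its call in each fit without 1 library and Ece1 in each but that without precursor 1 (largest edgeR adjusted p 0.157 and 0.107). Ace also lost it without both replicate 1 libraries (log2 ratio -1.35, edgeR adjusted p = 0.0691), and Ece1 by limma on log2(TPM + 1) and log2(TPM + 0.1) (-1.02 and -1.10, limma adjusted p = 0.101 and 0.0897). The count of called genes was 1 without precursor 1 and 0 without any other library. The neprilysin gene Mme (24590) was at 3.79, 1.53 and 1.49 CPM in differentiated libraries and 2.79, 0.852 and 0.639 CPM in precursors, and missed the threshold (log2 ratio 0.67, edgeR adjusted p = 0.605).

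Among 28 tested transcription factors known to act at granule or neuropeptide genes, 1 rose and 0 fell by edgeR (median log2 ratio -0.21). At an unadjusted p under 0.05, 6 were lower and 2 higher, and DESeq2 called 3 lower and 2 higher. Of all 17797 genes tested, 3.21% were lower and 5.65% higher by edgeR. Among them 4110 had an unadjusted p under 0.05, and DESeq2 called 1242 lower and 1514 higher. The 1 factor of the list that rose by edgeR was St18 (266680), a neural zinc finger factor. It had 7.22, 11.1 and 11.4 CPM in differentiated libraries 1, 2 and 5, against 1.54, 0.475 and 1.07 CPM in precursors. Its log2 ratio was 3.27 (edgeR adjusted p = 0.00543). Rest (83618), the repressor of neuronal genes that include Vgf and granins, was at 52.7, 45.0 and 45.8 CPM in differentiated libraries and 57.7, 40.2 and 52.1 CPM in precursors, ranges that overlapped (log2 ratio -0.06, edgeR adjusted p = 0.863). Creb1 (81646), of the CREB family, was at 47.8, 48.7 and 50.6 CPM in differentiated libraries and 68.4, 60.4 and 61.4 CPM in precursors. It missed the threshold (log2 ratio -0.37, edgeR adjusted p = 0.0786) and passed with the block (edgeR adjusted p = 0.0143). Crem, Atf1 and Atf2 of the same list had log2 ratios of -0.09, -0.08 and -0.19 and were not called by edgeR. Egr1 and the tested Fos and Jun genes of the list are named after their values were seen, and were not called either. Log2 ratios were -1.28 for Egr1, -0.77 for Fos, -2.58 for Fosl1, -1.20 for Fosl2 and -0.82 for Junb. For Jun and Jund they were 0.39 and 0.09. The part of these factors in the levels of Vgf and Scg2 was not tested. With the block 8 of the 28 were lower and 3 higher, where 15.7% and 14.9% of all genes tested were. Without differentiated 1 or precursor 1 the count of called genes in the list was 2.

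Markers of other cell types that make granule peptides were also measured. Of 26 neuron markers, 23 were tested, 2 were higher (Elavl3 and Eno2) and 2 lower (Elavl4 and Stmn2), with a median log2 ratio of -0.76. At an unadjusted p under 0.05, 7 were lower and 2 higher, DESeq2 called 4 lower and 2 higher, and the replicate block 5 lower and 3 higher. Of the 23, 8 had every differentiated library below every precursor library and 2 had them above, where 13.8% and 16.5% of all genes tested did so. Over all genes tested, edgeR called 3.21% lower and 5.65% higher, and the block 15.7% lower and 14.9% higher. The summed level of the neuron markers was 464 to 507 CPM in differentiated and 329 to 570 CPM in precursor libraries. Dlx5 had no reads, and Rbfox3 was at 0.558 to 0.673 CPM in differentiated and 0.392 to 1.37 CPM in precursor libraries. Precursor 1 was the lowest precursor library in that sum at 329 CPM, as it was for Vgf, Scg2, Scg3, Chga, Chgb and Pcsk2. It was the highest precursor library for Pcsk1, and lay between the other precursors for Penk, Scg5 and Cpe. The part of neurons in these results was not tested. Of 11 markers of endocrine and chromaffin cells, Th, Pnmt, Phox2a and Hand1 were among those with no reads in any library. The summed level of that list was 14.9 to 19.3 CPM in differentiated and 16.6 to 27.7 CPM in precursor libraries, most of it from Ret and Insm1. Of 13 tested astrocyte markers 6 were higher and 0 lower in differentiated cells (1 lower at an unadjusted p under 0.05, and 1 by DESeq2), with a summed level of 9411 to 9674 CPM in differentiated and 6407 to 8490 CPM in precursor libraries. The part of astrocytes in these results was not tested.

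Among the genes whose levels over the 6 libraries were most like that of Penk were Pola2 (r = 0.997), Pdgfc (0.997), Sept9 (0.996) and Spc25 (0.995), by Pearson's r of log2 CPM among 11556 other genes with a mean of at least 5 CPM. Pdgfc, a growth factor gene, had 3.99, 4.39 and 4.11 CPM in differentiated libraries 1, 2 and 5, against 16.9, 16.4 and 14.6 CPM in precursors. Those most like Vgf were Chl1 (0.998), Whsc1 (0.998), Smad3 (0.997), Dclk1 (0.997) and the unnamed gene LOC102554136 (0.995). Chl1, a cell adhesion gene, had 50.5, 50.5 and 56.4 CPM in differentiated libraries and 145, 187 and 232 CPM in precursors, lowest in precursor 1 and highest in precursor 5, as was Vgf. The 6 points fall into the groups compared, so any gene with a clean difference scores high: 270 genes had r above 0.95 with Penk and 202 with Vgf. Within the set, r with Penk was 0.97 for Scg2, 0.96 for Vgf, 0.94 for Pcsk1, 0.91 for Chgb and 0.82 for Cpe, and it was negative for Scg5 (-0.54), Chga (-0.67), Scg3 (-0.68) and Pcsk2 (-0.75).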

How the data were processed

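The files are the authors' own processed table for 6 RNA libraries. Per the labels' protocols, ISOGEN was used for the RNA, and the total RNA kit was a stranded one. Per the submitters' processing notes, StringTie 2.1.3b, HISAT2 2.1.0, Trimmomatic 0.38 and bcl2fastq 2.20.0 were used, with the build GRCh38, a human assembly, although the genes carry rat identifiers. The sources used here name neither a rat build nor the strand setting, so overlapping antisense genes cannot be told apart. The deposited read counts are raw whole numbers. The deposited FPKM and the deposited TPM were made by the authors, and FPKM were not used.

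Counts were tested with edgeR 4.0.16 (quasi-likelihood, TMM, robust, its low-count filter) in R 4.3.3, with Benjamini-Hochberg adjustment over 17797 genes and a threshold of 0.05. Alternatives used limma 3.58.1 and DESeq2 1.42.0. The 3 tools and the block fit were run on simulated counts, with a condition to pass set only for edgeR without the block. The simulated counts held no replicate effect, so they could not check what the block does. The SE is the log2 fold change divided by the square root of F. Replicates are not stated to be separate cultures, so p-values reflect only how far these samples vary, which may be technical. Same-numbered libraries deviated together (r = 0.421, 0.197 and 0.272 across genes for numbers 1, 2 and 5, at most 0.105 for other pairs), which the labels do not state as a pairing, and block values stand beside calls they change. The genes and lists were chosen with earlier results of these data known. Named are all 10 genes, every called gene of a pathway list (at most 4 in each direction above 8 called), the 5 genes most like Penk and Vgf, and others marked as chosen after their values were seen or given as well known genes of a list. Qrfp, on more than 1 row, was left out. A few genes that this rule or a marker list names are not reported here.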

Additional observations from a re-analysis of the deposited data

How the results depend on the processing

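The lower levels of Penk and Vgf and the direction of each of the other 8 genes stayed the same under each of 13 alternatives. Scg2 and Pcsk1 passed the threshold in all 13 and Chgb in 8. The log2 fold change of Vgf was -1.66 on log2(TPM + 1), and that of Penk was -3.40 on log2(TPM + 0.1). With the replicate block, 6 of the 8 other genes were called, and 3 without it.

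All genes called numbered 1576 here (571 lower and 1005 higher), 2756 with DESeq2, 5440 with the replicate block, 2991 without both replicate 1 libraries, and 632 to 1482 without 1 library. The split was 1000 lower and 487 higher on log2(TPM + 1), and 1090 lower and 509 higher on log2(TPM + 0.1). The called genes of the lists moved as follows. DESeq2 called 6 neuropeptide, 6 enzyme and 5 transcription factor genes. Library size alone called 4 transcription factor genes. On log2(TPM + 1) 5 neuropeptide, 0 receptor and 3 transcription factor genes were called, and on log2(TPM + 0.1) 6 and 3 neuropeptide and transcription factor genes. The block called 8 neuropeptide, 12 enzyme, 14 granule, 3 receptor, 6 peptidase and 11 transcription factor genes. Without both replicate 1 libraries the counts were 6, 9, 12, 2, 3 and 4 in that order. Without 1 library they ran from 1 to 4, 1 to 5, 2 to 8, 0 to 1, 0 to 1 and 1 to 2, and the 8 other genes gave 2 to 3 calls. The cause of these shifts was not tested. Of 16 called list genes, 5 kept their call in each fit without 1 library, and 0 changed sign under any alternative. Genes with few reads, such as Pcsk1 in differentiated cells, have the widest counting error.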
